A study of Mus musculus with 6 samples.

Results

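The proteasome genes were taken by name from an FPKM table of mouse embryonic stem cell RNA: every row whose symbol began with Psm, a letter from a to g and a digit. This gave 47 of 18312 genes. They comprised 18 core subunits, 9 base subunits and 8 lid subunits of the regulatory particle, 6 assembly factors, and 5 activators or inhibitors. The remaining gene, Psmc3ip, encodes a partner of meiotic recombinases and not a proteasome subunit. FPKM is a count of fragments scaled to the length of the transcript and to the total count.

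The experiment was set up to find the transcripts held by Brf1 (gene Zfp36l1) and Brf2 (gene Zfp36l2), zinc finger proteins that bind AU-rich elements and promote mRNA decay. The labels describe 6 libraries of wild-type E14 cells, an embryonic stem cell line of the 129/Ola background, kept with LIF (1000 U/ml) in medium with 15% serum. Cytoplasmic RNA was sequenced as total RNA (2 libraries), after pull-down through an antibody that recognises both Brf proteins (2 libraries), or after pull-down with rabbit IgG as control (2 libraries). The table holds 1 profile of 22625281 counts, none of its columns names a library, and it was assigned to no group. Every value below is therefore a single value without replicates, bounds on FPKM are the authors' own and cover counting error only, and neither binding nor enrichment can be read from a level. In such a profile, fewer cells with a transcript and less of it per cell cannot be told apart. Which libraries it holds is not known. If it holds pull-down libraries, a level need not follow the amount of a transcript in the cells.

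The 26S proteasome degrades proteins that carry ubiquitin chains. Its barrel, the 20S core, is built from rings of α and β subunits, and 3 of the β subunits cut peptide bonds. The 19S regulatory particle caps the barrel: its base unfolds substrates with a ring of ATPases, and its lid removes ubiquitin. In immune cells and after interferon, the catalytic subunits Psmb5, Psmb6 and Psmb7 are replaced by Psmb8, Psmb9 and Psmb10, which makes the immunoproteasome and changes the peptides offered to MHC class I. Embryonic stem cells are known for high proteasome activity.

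All 47 genes had at least 1 FPKM, against 56.0% of all genes in the table, and 44 had at least 5. Their median was 86.2 FPKM, against 1.94 over all genes and 9.66 over the 10257 genes with at least 1 FPKM. Together they held 192420 counts, or 0.850% of the total (Wilson 95% interval 0.847 to 0.854). The 31 constitutive subunits of the core, base and lid lay between 51.0 and 247 FPKM, and all of them ranked among the 2000 highest genes, 15 among the highest 500. Below this range lay the 3 immunoproteasome subunits, the thymus subunit Psmb11, the 6 assembly factors, the activator Psme1, the inhibitor Psmf1 and Psmc3ip, as the plot of levels by class shows.

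**Figure D1:**
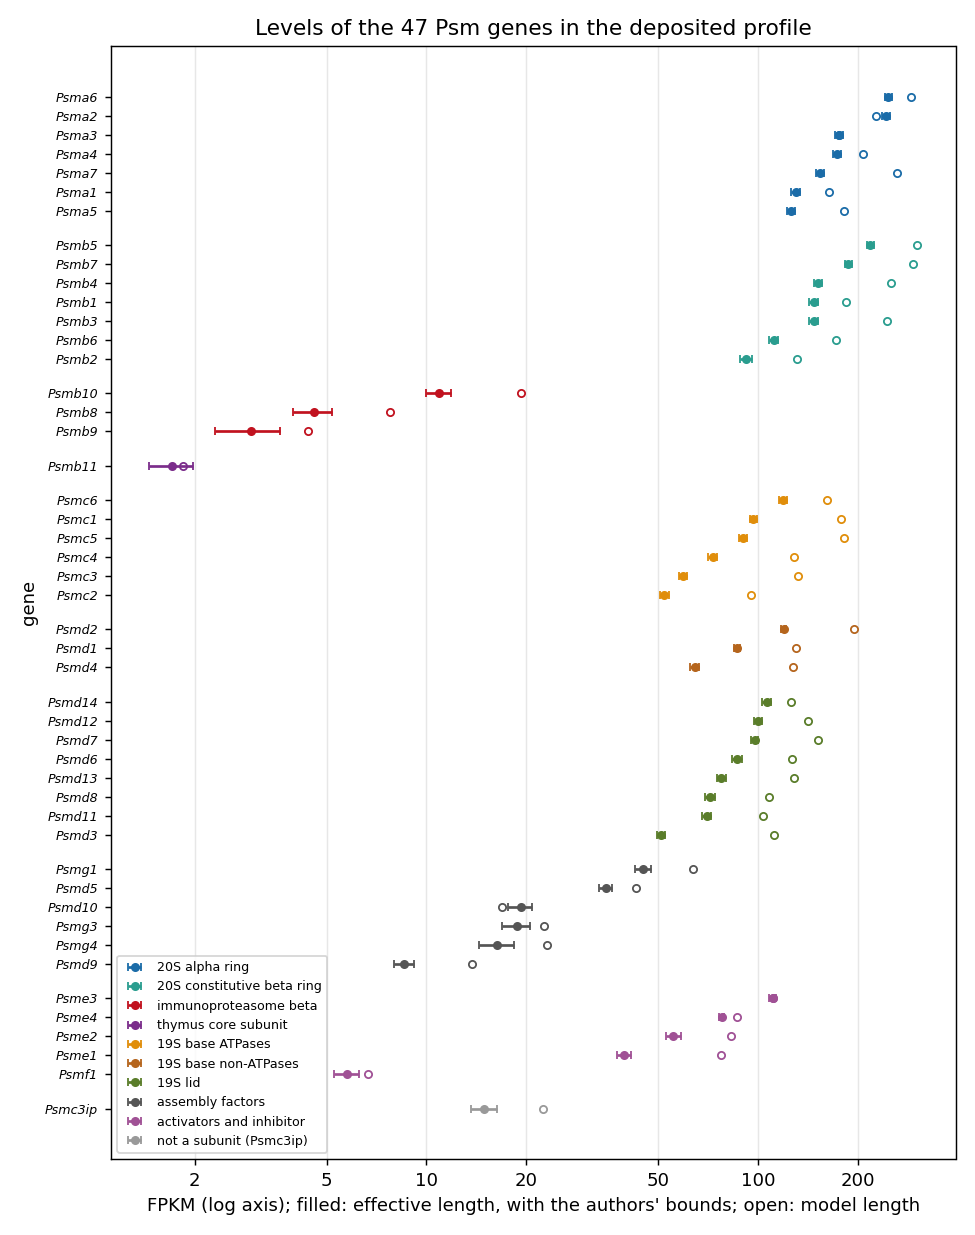
FPKM of the 47 genes on a log axis, grouped by role. Filled points use the table's effective length with the authors' bounds, and open points use the length of the transcript model. The 31 constitutive subunits of the core, base and lid lie between 51.0 and 247 FPKM, and the 3 immunoproteasome subunits between 2.96 and 10.9.

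The α subunits form the outer rings of the core and its gate. Psma6 had 247 FPKM (240 to 253) and Psma2 had 243 (236 to 250), and these bounds overlapped. Psma3 (175) and Psma4 (173), which also overlapped, came next, followed by Psma7 at 153. The lowest were Psma1 at 130 (126 to 133) and Psma5 at 126 (122 to 129), again with overlapping bounds. With the model length Psma6 was again highest (289) and Psma1 lowest (164). The ring as a whole had a median of 173 FPKM, and its highest gene was 1.96 times its lowest.

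The inner rings hold the catalytic sites. Psmb5, the chymotrypsin-like subunit, was the highest β gene at 218 FPKM (212 to 223). Psmb7, the trypsin-like subunit, had 187 (182 to 192), and Psmb6, the caspase-like subunit, had 111 (108 to 115). The whole ring ran from 92.0 to 218 FPKM, and the 3 catalytic genes, whose bounds did not overlap, from 111 to 218. The non-catalytic Psmb4 (152), Psmb1 (147) and Psmb3 (147) lay between them with overlapping bounds, and Psmb2 was lowest at 92.0 (88.3 to 95.7). The median of the 7 constitutive β genes was 147 FPKM.

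The order of the rings depended on the length used. With the table's effective length the α median was 1.17 times the β median, whereas with the length of the transcript model the β genes were higher, at 244 against 207. Effective length exceeded model length by a median factor of 1.54 in the β genes and 1.20 in the α genes (1.27 over all genes of the table). The median GC content of the transcripts was 52.2% in the β and 45.0% in the α genes. It was taken from the GENCODE transcript nearest in length to each model, and only 33 of the 47 lay within 10% of the model. The β median was that of Psmb4, whose transcript had 1183 nt against 949 nt in the model. Across all 47 genes, which share 1 profile, the factor and GC content had a Spearman correlation of 0.619, given as a description. Its part in the order of the rings was not tested. The α genes Psma2 and Psma7 also traded places: Psma2 was the higher with the effective length (243 against 153) and the lower with the model length (227 against 263).

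The immunoproteasome subunits were present but low. Psmb10 had 10.9 FPKM (9.98 to 11.8, 553 counts), Psmb8 had 4.58 (3.96 to 5.21, 215 counts) and Psmb9 had 2.96 (2.30 to 3.63, 80 counts). Their bounds did not overlap, and the order was the same with the model length. Psmb5 was 47.5 times as high as Psmb8 (95% counting interval 41.5 to 54.7), Psmb6 was 37.6 times as high as Psmb9 (30.2 to 47.5), and Psmb7 was 17.1 times as high as Psmb10 (15.7 to 18.7). The interval of the Psmb7 and Psmb10 pair lay below the others, also with the model length, where the ratios were 38.8, 39.1 and 15.2. RefSeq lists pseudogene copies named after Psma5, Psmb5, Psmb6 and Psmb7 and a coding copy of Psme2, Psme2b. All reads in the table are listed as unique, so reads shared with such copies leave no trace in it, and their part in these ratios was not tested.

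**Figure D2:**
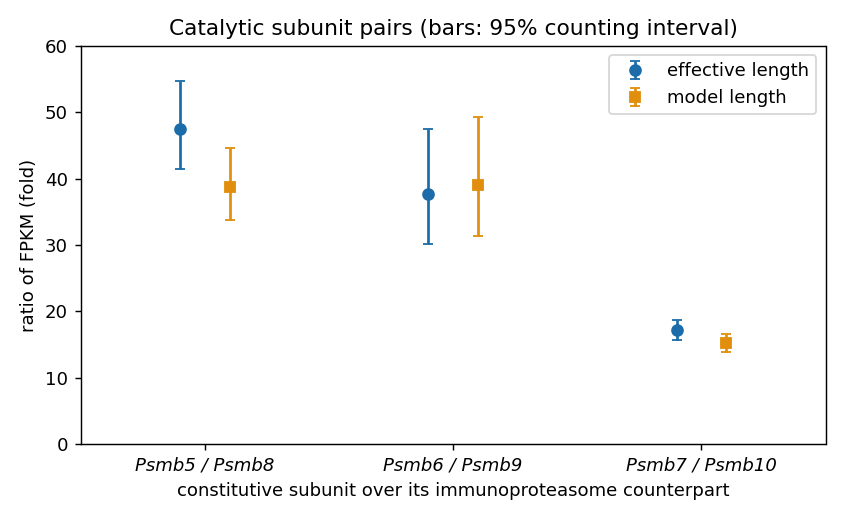
FPKM of each constitutive catalytic subunit divided by that of the immunoproteasome subunit that replaces it, with the effective length (circles) and the model length (squares). Bars are 95% intervals from the counts. Psmb7 over Psmb10, at 17.1 and 15.2, lies below the other pairs, which run from 37.6 to 47.5.

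The promoters of the pairs with the widest ratios are shown because they differ in the motifs that a search found. The pair of Psmb7 and Psmb10 is left out, as Psmb7 had no RefSeq promoter. Psmb10 had one, which held none of the motifs counted. The sequences are the 250 bases before the start site in RefSeq (build GRCm38.p6), 5′ to 3′ on the strand of the gene. Capitals mark, on either strand, the antioxidant response element core TGACNNNGC, the gamma-activated site TTCNNNGAA, the TATA box TATAAA, the CCAAT box and the GC box GGGCGG. These lie at chr14:54617996-54618245 (minus strand) for Psmb5, chr17:34197945-34198194 (plus) for Psmb8, chr11:70525107-70525356 (plus) for Psmb6 and chr17:34187331-34187580 (minus) for Psmb9.
Psmb5: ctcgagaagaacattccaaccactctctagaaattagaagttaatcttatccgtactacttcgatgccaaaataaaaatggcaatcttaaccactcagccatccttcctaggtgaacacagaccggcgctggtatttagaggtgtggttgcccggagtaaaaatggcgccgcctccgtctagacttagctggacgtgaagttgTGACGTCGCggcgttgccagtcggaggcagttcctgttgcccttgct
Psmb8: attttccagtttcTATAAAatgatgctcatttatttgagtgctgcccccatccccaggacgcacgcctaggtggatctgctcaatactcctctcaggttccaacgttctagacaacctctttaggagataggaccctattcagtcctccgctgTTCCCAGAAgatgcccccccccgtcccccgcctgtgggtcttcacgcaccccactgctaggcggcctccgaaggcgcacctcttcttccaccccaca
Psmb6: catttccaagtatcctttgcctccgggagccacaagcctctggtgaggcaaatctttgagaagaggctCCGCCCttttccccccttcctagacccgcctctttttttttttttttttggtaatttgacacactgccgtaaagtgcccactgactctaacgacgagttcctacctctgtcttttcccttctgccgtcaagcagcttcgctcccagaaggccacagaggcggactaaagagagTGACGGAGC
Psmb9: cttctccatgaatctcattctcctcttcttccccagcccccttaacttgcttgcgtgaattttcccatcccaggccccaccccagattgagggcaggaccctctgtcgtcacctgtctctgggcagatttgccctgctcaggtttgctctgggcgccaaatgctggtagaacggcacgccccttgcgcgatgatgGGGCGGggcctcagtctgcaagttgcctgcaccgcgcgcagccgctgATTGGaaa

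Psmb5 and Psmb6 each held 1 antioxidant response element core, the element bound by Nfe2l1 and Nfe2l2, and Psmb8 and Psmb9 held none in this window, although both held the relaxed core TGANNNNGC between 250 bases before and 50 after the start. Psmb8 held a gamma-activated site, an element of interferon-responsive genes, that began 97 bases before the start, and Psmb9 held a CCAAT box and a GC box. These are matches of letters and not tested sites. In the window from 250 bases before to 50 after the start of the 41 members with a RefSeq promoter, TGACNNNGC was found in 6, or 14.6%, against 15.4% of 13506 genes of the table with a promoter and 17.2% of those with at least 1 FPKM. TTCNNNGAA was found in 3 members, or 7.32%, against 9.23% and 8.34%. Both shares were near the background. Psmb5 and Psmb6 were the only 2 of 11 constitutive core genes with TGACNNNGC, and so do not stand for their class. The interferon-stimulated response element core, a pair of GAAA separated by any 2 bases, was found in 5 members, or 12.2% against 3.96% and 3.41%, and none of the 5 was an immunoproteasome subunit. They were Psmb3, Psmd4, Psmd9, Psme1 and Psmg4.

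In the RefSeq gene order Psmb9, the peptide transporter gene Tap1, Psmb8 and its partner transporter Tap2 follow each other, within the MHC region. All 4 genes were low, with Tap1 at 2.07 FPKM (1.79 to 2.36) and Tap2 at 2.03 (1.75 to 2.30). Among 11 listed genes of MHC class I antigen processing the median was 12.2 FPKM, and 10 reached 1 FPKM, against 56.0% of all genes. The general chaperones Canx (156), Pdia3 (139) and Calr (130) were high, the class I chain genes H2-K1 (23.2) and H2-D1 (12.2) and their light chain B2m (34.2) were intermediate, and the class I transactivator Nlrc5 was at 0.186. Among 14 measured genes of interferon signalling the median was 3.34 FPKM, and 10 reached 1 FPKM, against the same 56.0%. Irf1 had 14.8 FPKM, while Ifng had 0 counts, which allows up to 0.119 FPKM.

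Psmb11, the subunit known from thymic epithelium, had 1.72 FPKM (1.46 to 1.97, 178 counts) on a model of 4247 nt, and was the lowest member. Psmb5, its neighbour on chromosome 14, was 127 times as high (109 to 148). Of 4 thymic epithelial markers, the regulator Aire had 1.43 FPKM (1.14 to 1.72, 95 counts), with bounds that overlapped those of Psmb11. Krt14 had 0.522 FPKM and Krt5 0.0339, and the regulator Foxn1 had 0 counts, which allows up to 0.0432 FPKM.

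The labelled cell type was checked by its markers. All 6 listed embryonic stem cell markers were above 40 FPKM, with Pou5f1 at 605 and Nanog at 187. Of 7 leukocyte markers, 3 had at least 1 FPKM. These were Coro1a (6.74), Cd68 (5.32) and Laptm5 (4.52), and the pan-leukocyte gene Ptprc had 1 count. At least 1 FPKM was found for 1 of 4 thymic epithelial, 4 of 6 testis germ cell and 3 of 9 fibroblast markers. Of all genes in the table, 56.0% had at least 1 FPKM, so such counts of markers say little about the presence of these cells. The markers summed to 792 counts for leukocytes, 145 for thymic epithelium, 1794 for germ cells and 7001 for fibroblasts, against 848 for the 3 immunoproteasome genes. Tagln alone held 6326 of the fibroblast counts, and the collagen genes Col1a1, Col1a2 and Col3a1 were each below 1 FPKM. The germ cell gene Sycp3 had 37.0 FPKM and the smooth muscle and fibroblast gene Tagln had 125, whereas Prm1 and Acr had 0 counts. The part of such cells in the levels of Psmb8, Psmb9 and Psmb10 was not tested.

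The base couples ATP hydrolysis to unfolding. Among its 6 ATPases, Psmc6 was highest with the effective length at 119 FPKM (116 to 122), followed by Psmc1 at 96.7, Psmc5 at 90.0, Psmc4 at 72.8 and Psmc3 at 59.3. Psmc2 was lowest at 52.1 (50.4 to 53.8). No neighbours in this order had overlapping bounds. The ATPase proteins occupy single places in 1 ring, whereas these are RNA levels, with bounds for counting error only. The scaffold Psmd2 (119) overlapped with Psmc6, the scaffold Psmd1 had 86.2, and the ubiquitin receptor Psmd4 had 64.4. With the model length Psmc5 (182) and Psmc1 (178) stood above Psmc6 (161), and Psmc3 moved from the eighth to the fifth place of the 9 base genes, as its effective length was 2.23 times its model length, the highest factor among the 47. Adrm1, a base ubiquitin receptor whose name the selection does not cover, had 58.2 FPKM.

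In the lid, the deubiquitinase Psmd14, which removes the chain from the substrate, was highest at 106 FPKM (103 to 109) with the effective length. With the model length it was the fifth of the 8, at 126, and Psmd7 (152) and Psmd12 (142) were highest. With the effective length Psmd12 (bounds 97.3 to 102.6) and Psmd7 (97.5), the inactive partner of Psmd14, followed with overlapping bounds. Psmd6 had 86.4, Psmd13 77.4, Psmd8 71.5 and Psmd11 69.9, the last pair with overlapping bounds. Psmd3 was lowest at 51.0 (49.6 to 52.4). Psmd11 was thus seventh of 8 here, and lowest of the lid with the model length (103). It is known for raised levels in human embryonic stem cells. No other cell type was measured here, so its rank within the lid does not bear on that. The small lid subunit Shfm1, also outside the selection by name, had 184 FPKM (177 to 192), above every lid member with the name Psmd.

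Base and lid had similar medians, 86.2 and 81.9 FPKM, and both were below the core. The median of all 18 core members was 147 FPKM, so that the lid stood at 0.557 and the base at 0.585 of it. Against the 14 constitutive core genes alone (median 153) the shares were 0.537 and 0.565. With the model length the 19S genes were again lower, with medians of 126 for the lid and 132 for the base against 217 for the constitutive core.

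The raw counts did not differ in this way. The 14 constitutive core genes had a median of 5060 counts (2506 to 6528) and the 17 base and lid genes a median of 4884 (3614 to 13033). Their models differed in length, with medians of 983 and 1564 nt. Across the 31 genes FPKM and model length had a Spearman correlation of -0.661, and counts and model length one of 0.189, both given as descriptions of 1 profile. FPKM divides the count by the effective length, so the negative correlation follows in part from that division. The higher counts of Psmd2 (13033) and Psmd1 (9605) came with the longest models of the 31, 2961 and 3256 nt. The lower FPKM of the 19S genes therefore stands beside near-equal counts, and whether length-dependent recovery of fragments contributes was not tested.

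**Figure D3:**
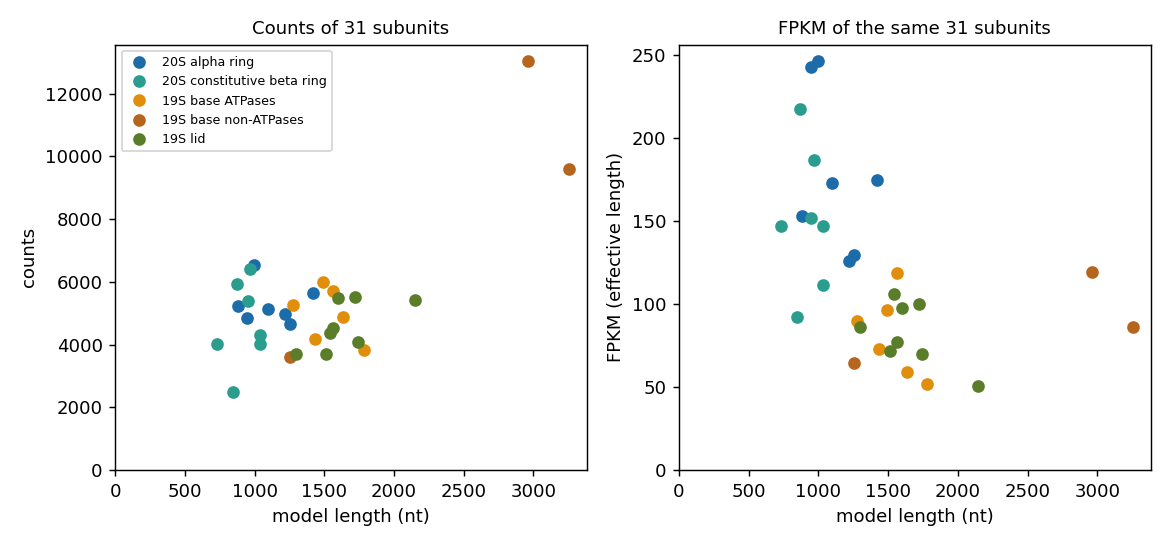
Counts (left) and FPKM with the effective length (right) of the 31 constitutive subunits of core, base and lid against the length of the transcript model in nt. Most genes lie between 2506 and 6528 counts at any length up to 2147 nt, with Psmd1 and Psmd2 above, while FPKM is higher for the shorter core models.

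Of 10 promoter motifs counted, CCGGAAG is shown for its split between the subcomplexes, which was seen after counting. This heptamer, the core of sites for ETS factors, was found on either strand in 9 of 14 base and lid genes with a RefSeq promoter and in 1 of 11 constitutive core genes, Psma6. Over all 41 members with a promoter the share was 36.6%, against 13.3% of 13506 genes and 20.9% of the genes with at least 1 FPKM. The split was not tested, and other motifs also differed in count between the subcomplexes. The match nearest the start site is shown for each of the 9 genes, with the heptamer in capitals on the strand of the gene (CTTCCGG where it reads on the other strand). In 7 of them it began within 45 bases before the start. Positions were not counted in any other genes, so this closeness cannot be called particular to these genes.
Psmc1 (chr12:100110163-100110191, plus strand): tggtggatgcaCTTCCGGcggtggcgatt
Psmc2 (chr5:21786712-21786740, plus strand): gcgcggagctaCTTCCGGtggggaagaga
Psmc6 (chr14:45329713-45329741, plus strand): aggcgggccagCCGGAAGgggcggagcca
Psmd11 (chr11:80428593-80428621, plus strand): cgagggcgggtCTTCCGGgtgtgtgtttc
Psmd12 (chr11:107479500-107479528, plus strand): tgagcgggcgaCTTCCGGtgcgagtgacg
Psmd13 (chr7:140882377-140882405, plus strand): cgcccgcggtgCCGGAAGtgagcgagcac
Psmd2 (chr16:20651615-20651643, plus strand): tccgcagggcgCTTCCGGtctggaggaca
Psmd4 (chr3:95042722-95042750, minus strand): ttacagctgttCCGGAAGctgctgcgaag
Psmd6 (chr14:14120973-14121001, minus strand): cagagacgcgaCCGGAAGtcagactggcg

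The other motifs were read against both backgrounds, all 13506 genes and the 7659 of them with at least 1 FPKM, since all members are among the latter. The relaxed response element core TGANNNNGC was found in 24 members (58.5%, against 45.6% of all genes and 48.2% of those with at least 1 FPKM). It contains every match of TGACNNNGC and was found in 8 of 11 constitutive core, 6 of 14 base and lid and 2 of 3 immunoproteasome promoters, the last being Psmb8 and Psmb9. GGGCGG was found in 23 members (56.1%), above all genes (52.8%) and below genes with at least 1 FPKM (71.7%). It was in 5 of 11 core and 10 of 14 base and lid promoters. GCCACG was found in 10 (24.4%, against 19.2% and 25.9%), in 4 of 11 core and 2 of 14 base and lid promoters. TATAAA was found in 4 (9.76%, against 14.3% and 8.34%). For these 3 motifs the members lay on opposite sides of the 2 backgrounds. CCAAT was found in 15 (36.6%, against 42.4% and 43.9%), in 6 of 11 core and 4 of 14 base and lid promoters. The AP-1 site TGACTCA was found in Psmd9 alone (2.44%, against 5.44% and 4.14%). None of these differences was tested.

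Dedicated chaperones assemble the particle and are not part of it. The 6 measured under Psm names had a median of 18.98 FPKM, below all 31 constitutive subunits even at the highest, Psmg1 with 45.0. Psmg1, Psmg3 (18.7) and Psmg4 (16.4) build the α ring, and the last pair had overlapping bounds. Psmd5 (34.7), Psmd10 (19.2) and Psmd9 (8.59) assist the base. Pomp, which matures the β ring and falls outside the name rule, had 158 FPKM (152 to 163), within the range of the core subunits.

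Activators open the gate of the core without ATP. Psme3, which forms the nuclear PA28 ring, had 111 FPKM (108 to 113, 6565 counts), and Psme4, the large PA200 cap, had 77.7 (76.3 to 79.0, 12560 counts). Psme1 and Psme2, which form the interferon-inducible PA28 ring together, had 39.5 (37.5 to 41.4) and 55.5 (52.7 to 58.4). Both were thus above all 3 immunoproteasome subunits. Psme2 was 1.41 times as high as Psme1 (1.31 to 1.51), and with the model length 1.07 times (1.00 to 1.15). Psmf1, named for inhibition of the core, had 5.77 FPKM. Psmc3ip, the meiotic factor, had 14.9 FPKM.

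Outside the Psm names, all 7 measured partners of the proteasome reached 1 FPKM, against 56.0% of all genes, and their median was 58.2. The deubiquitinase Uchl5 had 82.3, the nuclear import factor Akirin2 47.6, the ubiquitin ligase Ube3c 22.2 and the scaffold AI314180 16.2. All 9 measured genes of the transcriptional and stress axis did too, with a median of 15.8. Nfe2l1, the factor that raises proteasome genes when the proteasome is inhibited, had 38.4 FPKM (37.4 to 39.4) and its relative Nfe2l2 had 28.8 (27.4 to 30.2). Of the proteins that process Nfe2l1, the segregase Vcp had 140, the protease Ddi2 15.6 and the glycanase Ngly1 2.35. The 6 ubiquitin shuttles had a median of 52.9, with Rad23b at 164 and Ubqln1 at 83.3.

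Spread within the subcomplexes was set beside 3 other stable complexes. The highest gene was 2.08 times the lowest in the lid, 2.29 times in the base and 2.68 times in the constitutive core. It was 2.66 times in the CCT chaperonin (8 genes, from Tcp1 at 162 to Cct6a at 432), 3.48 times in 12 measured eIF3 subunits (Eif3i at 71.1 to Eif3e at 248) and 5.42 times in the COP9 signalosome, a relative of the lid (9 genes, Cops7b at 17.7 to Cops2 at 95.9). With Shfm1 the lid's ratio was 3.62, the fifth of the 6, whereas with the model length it stayed the lowest of the 6, at 1.47 without and 1.95 with Shfm1. Without Cops7b, which shares its place with Cops7a, the COP9 ratio was 2.79. Such ratios tend to grow with the number of genes, here 8 in the lid, 9 in the base and 14 in the constitutive core. The SD of log2 FPKM was 0.348 in the lid, 0.426 in the base and 0.410 in the core. In median level the lid (81.9) lay above the COP9 signalosome (44.3) and below eIF3 (129) and the chaperonin (221). No test was made of these differences, since subunits are not replicates.

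**Figure D4:**
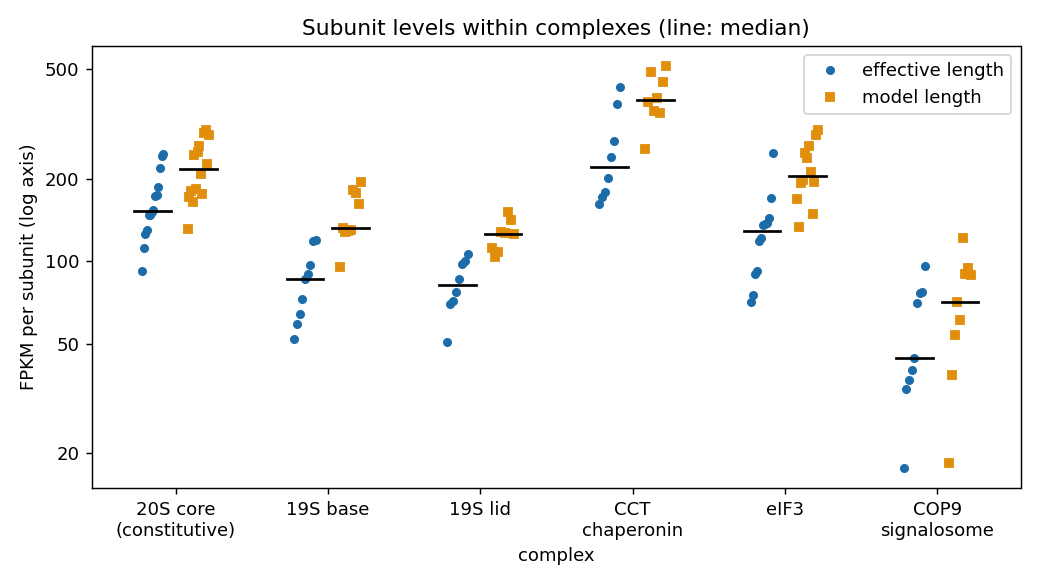
FPKM of each subunit on a log axis for the constitutive core, base and lid and for 3 other complexes, with the effective length (circles) and the model length (squares). Lines are medians. The base genes lie within 2.29-fold and the lid genes within 2.08-fold with the effective length, and those of the COP9 signalosome spread 5.42-fold.

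Because Brf1 and Brf2 bind AU-rich elements, the 3′ untranslated regions of the 47 genes were searched for TATTTAT in the coding GENCODE M21 transcript nearest in length to the model. Of 46 regions of at least 50 nt, 3 held it (6.52%), against 28.4% of the regions of genes with at least 1 FPKM. The regions of the proteasome genes were short, with a median of 201 nt against 982. Among genes with at least 1 FPKM and a region of 108 to 411 nt, the middle range of the proteasome genes, 7.23% held the motif, and none of the 22 proteasome genes in that range did. The pentamer ATTTA was found in 12 of the 46 (26.1% against 67.3%). Among regions of 108 to 411 nt it was found in 3 of the 22 proteasome genes (13.6%), against 32.1%. The 3 sites are shown with TATTTAT in capitals, since they are the only matches among the members. They are in the 3′ untranslated regions of Psme3 at chr11:101322920-101322926 (plus strand), Psmc6 at chr14:45349639-45349645 (plus) and Psmc3ip at chr11:101092182-101092188 (minus), in GRCm38.
Psme3: aatgtttctcgTATTTATagtattgtgct
Psmc6: aaaattgagatTATTTATagttaattctt
Psmc3ip: agtatttgtaaTATTTATtgtaatataat

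The transcript of Psme3 (2664 nt) matched its model (2619 nt) in length. Those of Psmc6 (2234 against 1564 nt) and Psmc3ip (1291 against 972 nt) were longer than the models, which may not contain these sites. Other transcripts were shorter than their models, such as those of Psmd5 (555 against 2042 nt) and Psmb9 (433 against 806 nt). For such genes the model may contain sites that the search did not cover. Among the 33 members whose transcript lay within 10% of the model, Psme3 was the only gene with the motif in its region.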

How the data were processed

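The submitters' processing notes name CASAVA 1.8.2, Bowtie 1.1.2, eXpress 1.1.1 and build mm9, without roles. Per the file headers, the authors deposited total and unique counts, estimated counts, effective counts and FPKM with bounds, for 1 model per symbol. Total, unique and estimated counts were equal in every gene row. The authors' FPKM was recomputed from count, effective length and total within 0.01% in every gene row, and again with the model length. One row without a gene, which holds the total of 22625281, was left out. Strand handling is not given in the sources used here, so antisense genes cannot be told apart.

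The members and gene lists were chosen with earlier results of these data known. The planned comparison of Brf immunoprecipitate with IgG was not run, because no column names a library. Every member could be named; genes of other lists were named by their role, and of other complexes the highest and lowest subunit. Psma8 and Psmg2 had no row under these names and were not analysed here. Ratios carry exact conditional binomial 95% intervals and 1 share a Wilson interval (counting error only); a count of 0 was taken to allow 3 counts. Interval, FPKM and motif code was tested on simulated data. RefSeq promoters (GRCm38.p6) matched 41 of 47 members; transcripts are from GENCODE M21. Values were computed in Python 3.11.15 with pandas 2.3.3 and numpy 2.4.6, intervals with scipy 1.17.1 and plots with matplotlib 3.10.9. Alternatives were the model length, estimated counts, other thresholds and other subunit sets. The values of 2 genes of the wider lists are not reported here.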

Additional observations from a re-analysis of the deposited data

How the results depend on the processing

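No paired analysis was possible because no library or replicate is named in the table, and for the same reason no library could be left out. Pseudocounts were not varied, since no test on a log scale was made. All 47 genes kept at least 1 FPKM with the model length and at least 10 counts, and 44 had at least 5 FPKM. Estimated counts equal total counts and all 47 members have at least 1 FPKM, so these alternatives repeat the reported values and test nothing. With the model length, 42 members were higher beyond the authors' bounds, 2 lower and 3 within them, and the medians were 207 (α ring), 244 (constitutive β), 7.77 (immunoproteasome), 147 (ATPases), 130 (other base), 126 (lid), 22.9 (assembly factors), 83.0 (activators and inhibitor), 22.5 (Psmc3ip), 182 (core), 132 (base) and 164 (all 31 subunits). Ratios then became 0.691 (lid to core), 0.724 (base to core), 0.0258 (Psmb8 to Psmb5) and 0.0658 (Psmb10 to Psmb7). The α to β ratio reversed, to 0.851; this follows from the lengths alone, the count being the same. Without immunoproteasome and thymus subunits the core median was 153. In the order of complexes from the tightest, the model length put the core at 5, the base at 3, the chaperonin at 2 and eIF3 at 4. The SD of log2 FPKM put the core at 2, the base at 3, the chaperonin at 5 and eIF3 at 4. The lid with Shfm1 came at 5 and the COP9 signalosome without Cops7b at 5, both chosen after seeing the data. Counts of 80 to 553 limit the immunoproteasome subunits, and spread between samples is unknown.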
